A study of Mus musculus with 9 samples.

Results

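Regulators of G-protein signalling (RGS proteins) were followed at the RNA level in iNKT1 cells, the T-bet-expressing subset of invariant natural killer T cells, a lipid-recognising T cell lineage restricted by CD1d. The genes described are the 7 RGS genes Rgs1, Rgs2, Rgs3, Rgs10, Rgs14, Rgs16 and Rgs19, out of 14004 genes in the deposited table. They were chosen by symbol and not by a rule on their values, with earlier results of these data known. All 7 were listed in the table and all 7 passed the filter on low values. Further RGS genes in the table are described below. RNA-seq was done on 9 libraries, 3 each from thymus, liver and spleen. Every library came from untreated C57BL/6 mice of the genotype Tbx21CreTg;Rosa26-LSL-YFP+/+, which carry a Cre recombinase under Tbx21 control and a Cre-dependent YFP reporter, so the tissues differ in their source organ and share the alleles. The replicates are described as independent, while the age and sex of the mice, the pooling of animals and the sorting gate are not given in the sources used here.

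A receptor coupled to a heterotrimeric G protein signals while its Gα subunit holds GTP, and an RGS protein ends the signal by speeding up GTP hydrolysis on Gα. RGS proteins thereby set how long a lymphocyte responds to ligands of Gi- and Gq-coupled receptors, such as chemokines and sphingosine 1-phosphate. The R4 subfamily (Rgs1, Rgs2, Rgs3, Rgs16 and Rgs18) consists mostly of small proteins, the R12 subfamily includes Rgs10 and Rgs14, and Rgs19 belongs to the RZ subfamily. Rgs1 is known in lymphocytes as a brake on chemokine-driven migration.

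The question the design poses is whether these genes are expressed at the same level in iNKT1 cells of the 3 organs. Rgs2 alone among them had thymus values apart from the other tissues: each of its thymus values lay above each of its liver and spleen values, 8.29-fold over liver and 6.32-fold over spleen by the means. Such separation was common, since 15.3% of all genes tested had non-overlapping values in each thymus comparison. The thymus values themselves ranged from 1706 to 10023, and with adjustment over all 13309 genes tested the difference did not pass the threshold. Rgs1, Rgs3 and Rgs19 had the highest levels per length of the principal transcript in every liver and spleen library, an order that depends on the length used. Their values overlapped between all tissues. Rgs10, Rgs14 and Rgs16 also overlapped between tissues, and single libraries held much of their RNA.

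Rgs2 is shown first, since it alone among the 7 genes had thymus values apart from the other tissues. It lies on mouse chromosome 1 at 143999338 to 144004161 on the minus strand (GRCm38). The stretch upstream of its start is printed here because Rgs2 transcription is known to respond to cAMP, and matches to the core of the cAMP response element (TGACG, or CGTCA on the other strand) are in capitals. The sequence is from RefSeq on GRCm38.p6, chr1:144004162-144004399, minus strand, written 5′ to 3′, without the bases that overlap an annotated exon.
Rgs2 promoter: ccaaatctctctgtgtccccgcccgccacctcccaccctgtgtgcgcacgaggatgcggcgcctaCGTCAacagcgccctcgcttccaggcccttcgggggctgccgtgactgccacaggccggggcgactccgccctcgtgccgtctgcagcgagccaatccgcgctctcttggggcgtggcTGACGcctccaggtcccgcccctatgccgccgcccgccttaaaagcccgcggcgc
The element core was present at 181 and at 63 bases upstream of the RefSeq start. Among 32851 promoter windows, 16.7% held at least 1 match on either strand. No window of Rgs3, Rgs10, Rgs16 or Rgs19 held one, and Rgs1 and Rgs14 had no entry. The same Rgs2 stretch held 4 matches to the GC box (GGGCGG or CCGCCC, in 31.0% of windows), 1 to the CCAAT box (CCAAT or ATTGG, 32.9%) and none to the AP-1 site (TGANTCA, 6.54%) or the NFAT core (GGAAA or TTTCC, 53.7%). No pair of these matches overlapped. G and C made up 71.8% of its bases, against a median of 52.1% over all windows. These are matches of letters, not measured sites.

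Values below are the authors' normalised read counts, a level per gene that is not divided by gene length. The libraries corresponded to 18487219 to 39604258 recovered reads, except liver replicate 3 with 3870984, where 1 read is worth a value of 6.047. The 9 genes listed for T cells and iNKT1 cells, among them Cd3e and Tbx21, summed to 99535 to 123669 in thymus, 134198 to 152625 in liver and 93642 to 110441 in spleen. B cell genes (6 of 7 listed ones in the table) summed to at most 304, 759 and 4283 in the same order, and myeloid genes (5 of 8) to at most 315, 1298 and 3040, both highest in spleen replicate 1. Immature thymocyte genes (4 of 6) reached 679 in thymus replicate 3 and at most 40.9 outside the thymus. The library numbered 2 in each tissue had Xist values of 84543 to 107736 and 6 to 21 Y-linked reads, thymus replicate 3 had both (Xist 16531 and 7009 Y-linked reads), and the other libraries had at most 125 and at least 1454. In bulk samples, fewer cells of a type and less RNA per cell cannot be told apart.

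**Figure D1:**
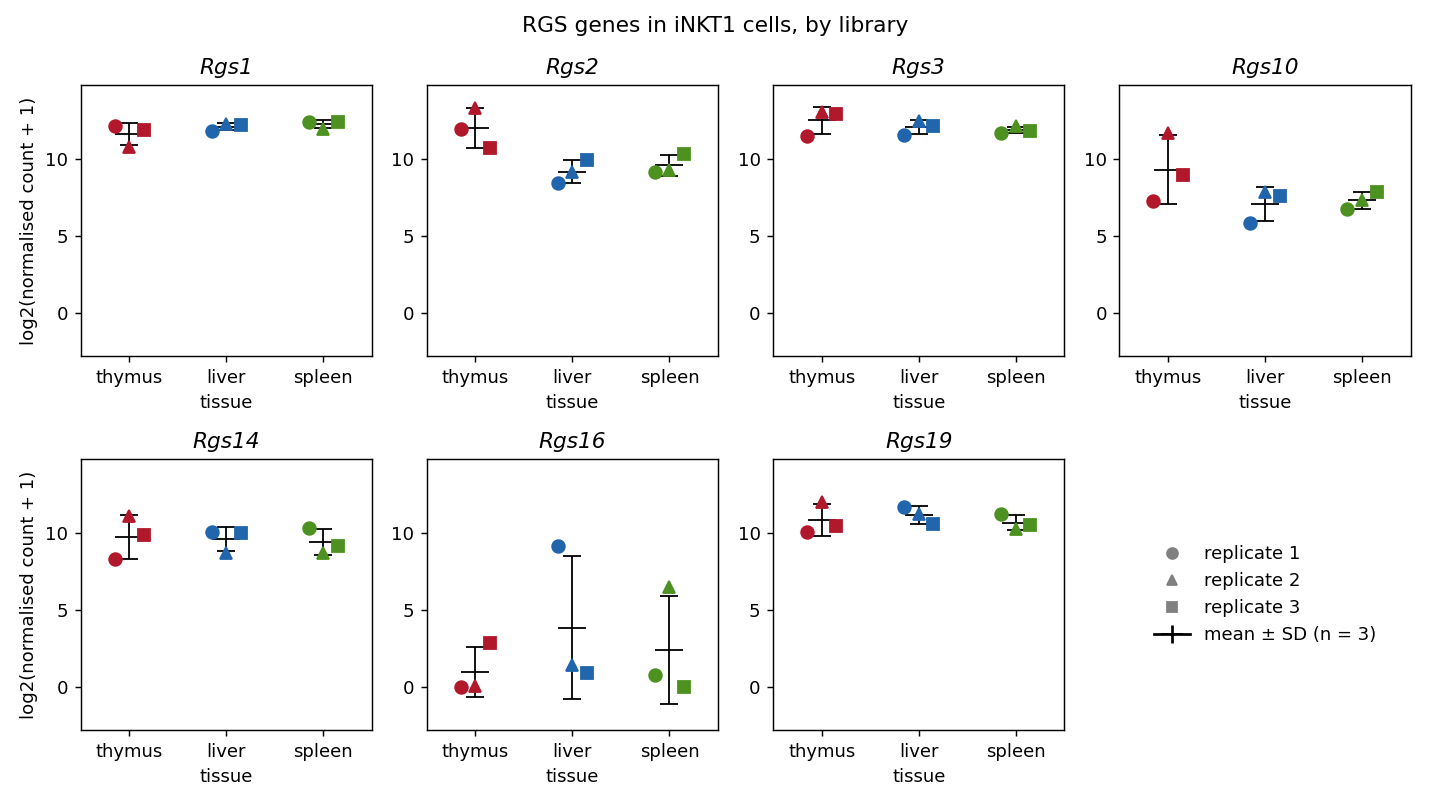
Log2(normalised count + 1) of the 7 RGS genes (vertical axis) by tissue (horizontal axis). Each point is a library, with its shape giving the replicate number, and the bar gives the mean and SD of 3 libraries. The thymus points of Rgs2 lie above all its other points, from 1706 upward on the linear scale against at most 1305, while Rgs10 and Rgs16 are spread by single libraries.

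Rgs2 encodes a small R4 protein that prefers Gαq and is known to be induced quickly after stimulation. Its values were 4002, 10023 and 1706 in thymus replicates 1, 2 and 3. They were 352.3, 575.8 and 969.9 in the liver and 566.5, 617.1 and 1305 in the spleen. All 3 thymus libraries were above all others, but thymus replicate 3 was close to spleen replicate 3. The means were 5244 ± 4295 in thymus, 633 ± 313 in liver and 829 ± 412 in spleen (SD, n = 3 each). Within the same replicate number, thymus was 11.4, 17.4 and 1.76 times liver and 7.06, 16.2 and 1.31 times spleen for numbers 1, 2 and 3. The size of the difference thus varied widely. The libraries were not treated as paired by these numbers, and since no thymus value overlapped with the others, each ratio had to exceed 1.

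The fit was limma's moderated linear model of log2(value + 1) with a trend, over all 9 libraries, with Benjamini-Hochberg adjustment over all 13309 genes and a threshold of 0.05. For Rgs2 it gave a log2 fold change of -2.81 (SE 0.65, 95% interval -4.20 to -1.43) for liver relative to thymus, with an unadjusted p of 0.000586 and an adjusted p of 0.104. For spleen relative to thymus the log2 fold change was -2.41 (95% interval -3.79 to -1.02), with an unadjusted p of 0.00209 and an adjusted p of 0.164. These place Rgs2 at rank 75 and rank 168 by p among all genes tested. Both comparisons use the same thymus libraries. Liver and spleen differed by -0.40 (95% interval -1.79 to 0.98, adjusted p 1), so spleen could hold between 0.506 and 3.46 times the liver level. The exact permutation test of the tissue difference in Rgs2, over all 280 partitions of the 9 libraries, gave p = 0.0179 before any correction, where the smallest possible value is 0.00357, and 5 partitions gave as large an F.

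No RGS gene passed the threshold in any comparison in this fit (0 of 7). Of the genes tested, 0.323% passed for liver against thymus, 0.398% in spleen vs thymus, 0.015% in liver vs spleen and 0.346% in the F-test of any tissue difference. At an unadjusted p under 0.05 in limma, Rgs2 was the single RGS gene in each thymus comparison (1 of 7) and none was found in liver vs spleen. Of all genes, 11.6%, 11.7% and 3.03% were under it (1550, 1555 and 403 genes). Non-overlapping values, which Rgs2 showed in both thymus comparisons (1 of 7 RGS genes each) and no RGS gene showed in liver vs spleen (0 of 7), were found for 15.3%, 15.3% and 12.7% of all genes. In the thymus comparisons, 1 of 7 is close to the share over all genes by either measure. The median log2 fold change of the 7 genes was -0.15 for liver vs thymus, -0.35 for spleen vs thymus and 0.17 for liver vs spleen, beside 0.29, 0.33 and -0.02 over all genes tested.

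**Figure D2:**
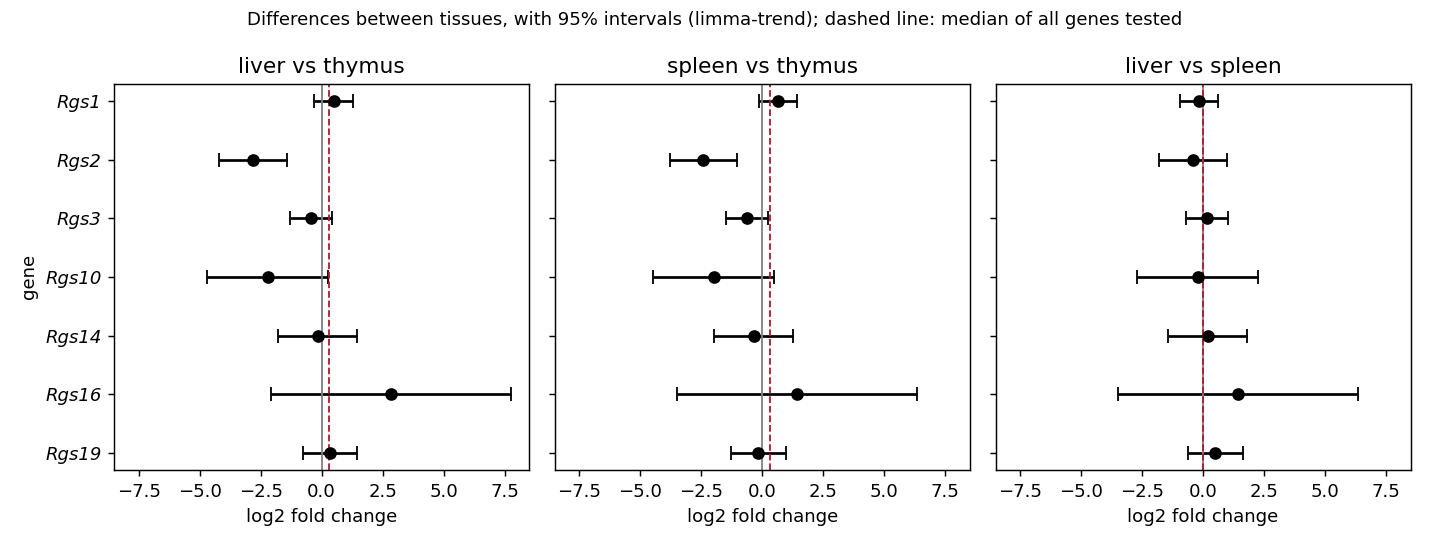
Log2 fold change (horizontal axis) of each RGS gene (vertical axis) in the 3 tissue comparisons, with bars for 95% intervals from limma. The solid line marks 0 and the dashed line the median of all genes tested. The intervals of Rgs2 lie below 0 in both thymus comparisons (-4.20 to -1.43 and -3.79 to -1.02), and every other interval includes 0.

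Whether Rgs2 passed depended on the tool and on thymus replicate 3. DESeq2 on the recovered reads called Rgs2 lower in liver (log2 fold change -3.07, adjusted p 0.000231) and in spleen (-2.70, adjusted p 0.00186). That fit called 3.96% and 4.51% of the 11604 genes with an adjusted p in those comparisons. In its test of any tissue difference it called 3.38% of 10728 genes. The quasi-likelihood test of edgeR did not call Rgs2 from the recovered reads (adjusted p 0.0894 and 0.159). Without thymus replicate 3, limma called Rgs2 lower in liver (-3.44, adjusted p 0.0301) and in spleen (-3.04, adjusted p 0.0461), while 1.15% and 1.07% of all genes passed there. With only the libraries numbered 1 and 3, 2 per tissue, the adjusted p values were 0.503 and 0.546. The log2 fold change was negative with all libraries and in all 24 alternatives for both thymus comparisons, between -3.50 and -2.16 for liver and between -3.12 and -1.60 for spleen. Since no thymus value overlapped with the others, leaving out libraries or changing the filter, pseudocount or weights could not turn this sign. Thymus replicate 3 is also the library with reads of Xist and of Y-linked genes and with the highest immature thymocyte sum, and the part of these in the Rgs2 level was not tested. Hepatocyte genes (5 of 7 listed ones in the table) summed to 1350 to 1709 in liver, 0.101 to 270 in thymus and 0 to 14.1 in spleen, and their part in the Rgs2 values was not tested.

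**Figure D3:**
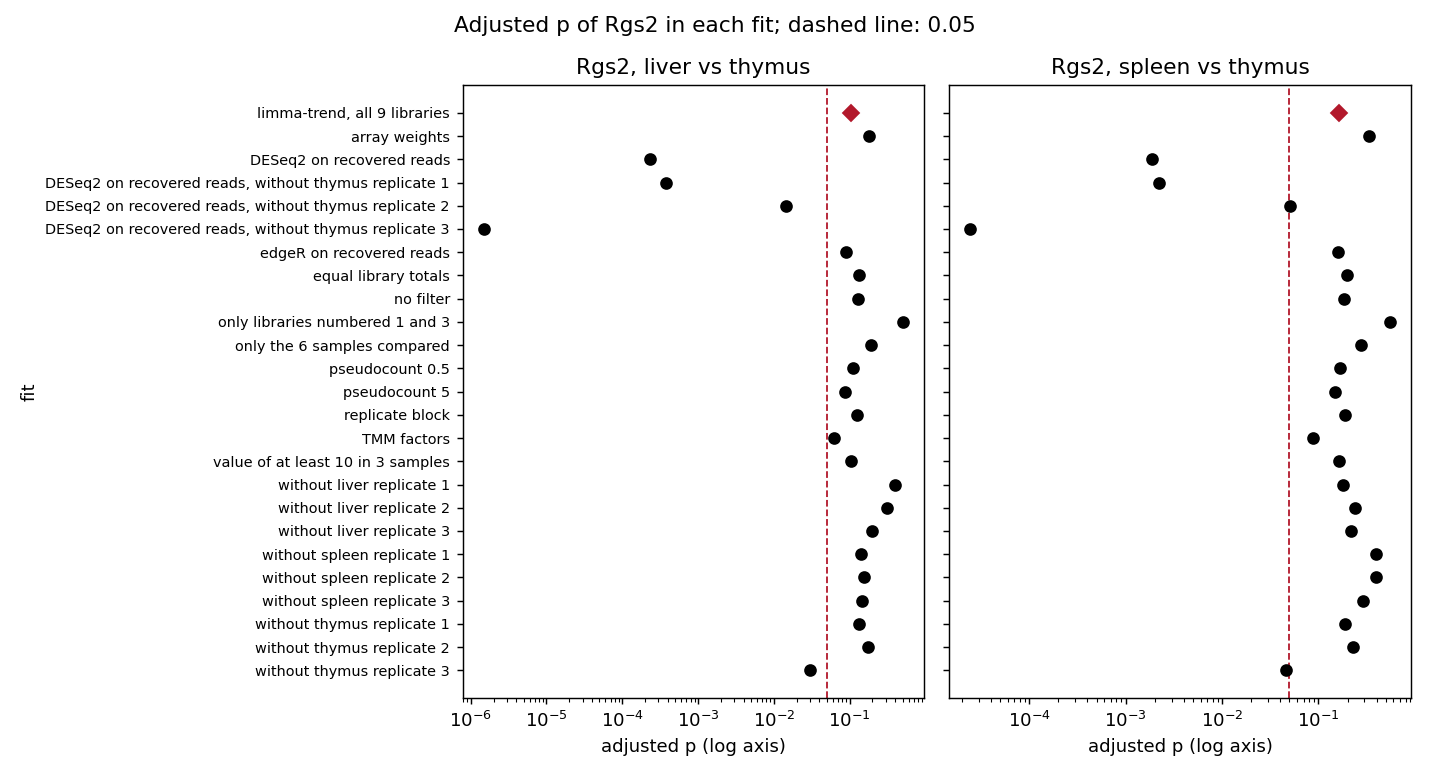
Adjusted p of Rgs2 (horizontal axis, log scale) in each fit (vertical axis) for liver vs thymus and spleen vs thymus. The diamond is limma-trend on all 9 libraries and the dashed line is at 0.05. Points left of the line are fits with DESeq2 and limma-trend without thymus replicate 3 (0.0301 and 0.0461), and DESeq2 without thymus replicate 2 was at 0.0505 for spleen.

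Rgs1 lies next to Rgs2 on chromosome 1 (144242296 to 144249242, minus strand), 238 kb away, and its values followed another order. They were 4501, 1755 and 3802 in thymus, 3601, 4930 and 4645 in liver, and 5372, 3932 and 5450 in spleen. Thymus replicate 2, which had the most Rgs2 RNA, had the least Rgs1 RNA, and the tissues overlapped. The log2 fold change was 0.49 for liver vs thymus (95% interval -0.30 to 1.27, adjusted p 0.636) and 0.65 for spleen vs thymus (95% interval -0.14 to 1.43, adjusted p 0.511). Liver vs spleen was -0.16 (95% interval -0.95 to 0.63). The intervals of Rgs1 were the narrowest among the 7 genes. The level of Rgs2 relative to Rgs1, taken within a library, was 0.889, 5.71 and 0.449 in thymus, 0.0978, 0.117 and 0.209 in liver, and 0.105, 0.157 and 0.239 in spleen. The thymus values of this ratio of deposited values did not overlap with the others. It is no separate check of Rgs2, since Rgs1 itself was lowest in the thymus library where Rgs2 was highest.

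Rgs3, an R4 member with several long forms that acts on Gαi and Gαq, is on chromosome 4 (62559847 to 62704001, plus strand). It had 2901, 8576 and 7812 in thymus, 3040, 5653 and 4530 in liver, and 3335, 4431 and 3675 in spleen. Thymus held both its lowest and its highest value. The log2 fold changes were -0.44 for liver vs thymus (95% interval -1.29 to 0.41) and -0.61 for spleen vs thymus (95% interval -1.47 to 0.24), with adjusted p values of 0.701 and 0.572. DESeq2 without thymus replicate 1 was the single fit to call Rgs3, in spleen vs thymus (-1.14, adjusted p 0.0277).

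Rgs16, an R4 protein on Gαi and Gαq known to be induced in activated T cells, is on chromosome 1 (153740349 to 153745468, plus strand). Nearly all of its reads came from a pair of libraries. Liver replicate 1 had a value of 576.3 (663 reads) and spleen replicate 2 had 86.68 (126 reads). The other libraries held 0, 0 and 5 reads in thymus replicates 1, 2 and 3, 2 and 0 in liver replicates 2 and 3, and 1 and 0 in spleen replicates 1 and 3. The fit gave a log2 fold change of 2.85 for liver vs thymus with an interval from -2.07 to 7.77 (adjusted p 0.658), and without liver replicate 1 it was 0.18. Rgs16 shares 236 exonic bases with Gm28513 on the opposite strand, and whether counting used strand is not given in the sources used here.

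Rgs10, a small R12 protein selective for the Gαi class, is on chromosome 7 (128373621 to 128418758, minus strand). Its values were 153.6, 3316 and 500.2 in thymus, 56.52, 232.5 and 195 in liver, and 105.8, 163.7 and 232 in spleen. Thymus replicate 2 stood far above every other library, and thymus replicate 1 lay inside the range of liver and spleen. The log2 fold change was -2.20 for liver vs thymus (95% interval -4.69 to 0.28, adjusted p 0.477) and -1.99 for spleen vs thymus (95% interval -4.47 to 0.49, adjusted p 0.524). DESeq2 called Rgs10 lower in liver (-3.06, adjusted p 0.0439) and in spleen (-3.01, adjusted p 0.0437), and without thymus replicate 2 the same tool gave -1.04 (adjusted p 0.640) and -0.99 (adjusted p 0.637).

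Rgs14 combines an RGS domain with a GoLoco motif that binds inactive Gαi and with Ras- and Rap-binding domains, and it lies on chromosome 13 (55369732 to 55384687, plus strand). It had 309.4, 2188 and 920.1 in thymus, 1067, 414.5 and 1030 in liver, and 1273, 418.9 and 565.4 in spleen. Thymus replicate 2 was the highest library and thymus replicate 1 the lowest, so the thymus covered the whole range. The log2 fold changes, -0.15 for liver vs thymus (95% interval -1.77 to 1.47) and -0.35 for spleen vs thymus (95% interval -1.97 to 1.27), turned positive without thymus replicate 2 (0.53 and 0.33). Adjusted p values were 0.960 and 0.897.

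Rgs19, also known as GAIP, is a membrane-anchored RZ protein that acts on Gαi and binds the adaptor encoded by Gipc1. It lies on chromosome 2 (181688419 to 181693977, minus strand). Its values were 1053, 4019 and 1385 in thymus, 3302, 2403 and 1515 in liver, and 2354, 1220 and 1474 in spleen. All tissues overlapped, and the highest library was again thymus replicate 2. The log2 fold changes were 0.35 for liver vs thymus (95% interval -0.78 to 1.47, adjusted p 0.834) and -0.16 for spleen vs thymus (95% interval -1.28 to 0.97, adjusted p 0.940). The sign for spleen vs thymus turned in 5 of 24 other fits.

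The exact permutation p of the tissue difference was 0.189 for Rgs10, 0.232 for Rgs1 and 0.471 to 0.921 for Rgs3, Rgs14, Rgs16 and Rgs19. None of these shows equal levels: the 95% intervals of Rgs10, Rgs14 and Rgs16 each leave room for more than a 2-fold difference in either direction between liver and spleen.

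To compare levels between genes, values were divided by the length of the principal transcript, from 0.88 kb for Rgs10 to 3.89 kb for Rgs3. On this per-kb scale Rgs19 had the highest mean level in liver (1593 ± 591), followed by Rgs1 (1143 ± 182) and Rgs3 (1134 ± 337), whose difference was far inside their spread. In spleen the order was Rgs1 (1280 ± 223), Rgs19 (1114 ± 394) and Rgs3 (981 ± 144), which also overlapped (SD, n = 3 each). Then came Rgs14 at 355 ± 156 in liver and 319 ± 194 in spleen, Rgs2 at 209 ± 104 and 275 ± 137, and Rgs10 at 183 ± 105 and 190 ± 71.8, neighbours that did not differ beyond their spread. Rgs16 was last in 8 of 9 libraries. In thymus the top gene differed by library: Rgs2 in replicate 1, Rgs10 in replicate 2 and Rgs3 in replicate 3. The thymus means were 1736 ± 1422 for Rgs2, 1654 ± 792 for Rgs3, 1504 ± 1971 for Rgs10, 1425 ± 1076 for Rgs19, 873 ± 371 for Rgs1 and 483 ± 407 for Rgs14, and neighbours in this order overlapped.

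The share of Rgs2 in the summed per-kb level of the 7 genes was 31.2%, 24.9% and 10.4% in thymus replicates 1, 2 and 3. It was 2.44%, 3.84% and 7.37% in liver and 4.02%, 5.71% and 10.1% in spleen. The lowest thymus share and the highest spleen share were nearly equal. Rgs1, Rgs3 and Rgs19 together made up the larger part in every liver and spleen library, with Rgs19 at 45.7% in liver replicate 1.

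**Figure D4:**
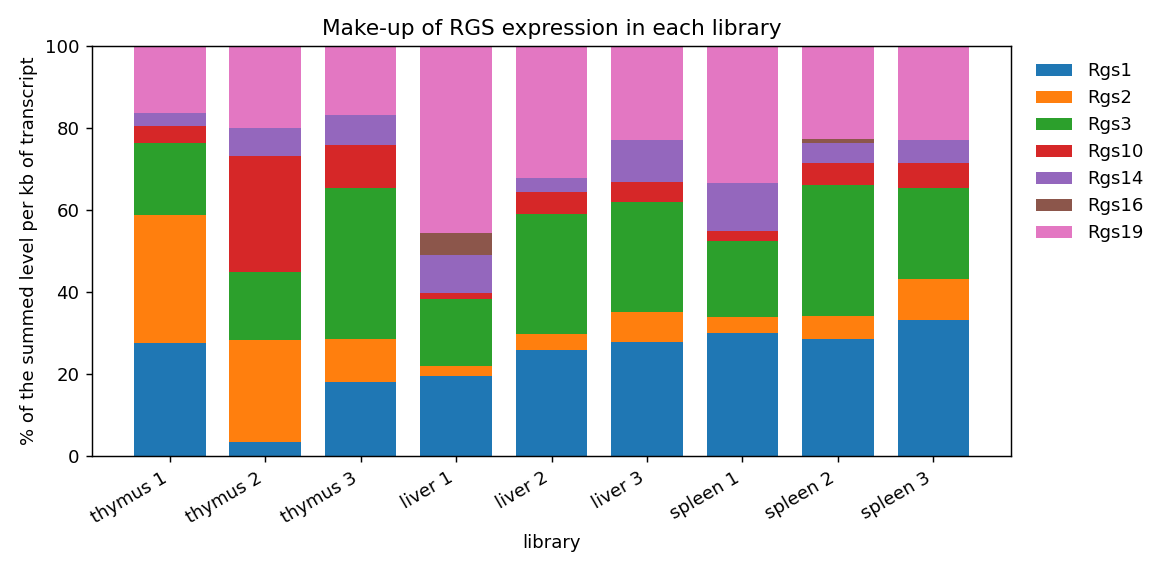
Share of each RGS gene in the summed level per kb of principal transcript (vertical axis, percent) in each of the 9 libraries (horizontal axis). Rgs2 takes 10.4% to 31.2% in thymus and 2.44% to 10.1% elsewhere, and Rgs10 takes 28.3% in thymus replicate 2.

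The 7 genes did not all vary together across libraries. Rgs2, Rgs3, Rgs10, Rgs14 and Rgs19 each had their highest value in thymus replicate 2, where Rgs1 had its lowest. As a description over 9 libraries, which share their scaling, Pearson's r of log2(value + 1) was 0.86 between Rgs3 and Rgs10, 0.81 between Rgs2 and Rgs10 and 0.71 between Rgs14 and Rgs19. After the tissue means were removed these were 0.84, 0.67 and 0.74. Every pair among Rgs2, Rgs3, Rgs10, Rgs14 and Rgs19 had a positive r, from 0.02 to 0.86, and from 0.19 to 0.84 with the tissue means removed. Rgs1 was negatively related to each of the other RGS genes, from -0.09 with Rgs16 to -0.75 with Rgs10. Among 8868 genes with a mean of at least 100, those most like Rgs2 were Angptl4 (r = 0.959), Fam149b (0.953) and Pvr (0.948). The nearest to Rgs1 were Pidd1 (0.974), Slc41a3 (0.969) and Aplp2 (0.967), and to Rgs3 Tspo (0.941), Ahdc1 (0.937) and Tmem222 (0.934). Rgs10 was nearest to Gigyf1 (0.974) and Nup85 (0.950), Rgs14 to Dnajc2 (0.929), Nsd2 (0.919) and Smc3 (0.912), and Rgs19 to Ctrl (0.975), Dnaja2 (0.971) and Lat2 (0.941). With so many candidates over 9 libraries, high values of r arise readily, and they are no measure of shared control.

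A further 16 genes with an Rgs symbol were listed, among them Rgs7bp and Rgs9bp, which encode RGS-binding proteins. Of these, 5 were in the table and 4 were tested, all but Rgs9bp, with none past the threshold in limma or edgeR. At an unadjusted p under 0.05 limma found 2 in liver vs thymus, 0 in spleen vs thymus and 1 in liver vs spleen. Rgs18, an R4 gene best known from platelets that lies 503 kb from Rgs1, had 198.7, 215.8 and 81.73 in liver (228, 251 and 13 reads), against 1, 0 and 0 reads in thymus and none in spleen. The liver mean of 165 was 46.3 times the value of 3 reads in thymus and 84.2 times that in spleen. These are no lower bounds, since the liver value of replicate 3 rests on 13 reads and is well under that mean. Its adjusted p in limma was 0.0768 for liver vs thymus and 0.506 for liver vs spleen, and DESeq2 called it higher in liver in both. Platelet genes (4 of 5 listed ones in the table) summed to 31.6 to 70.1 in liver, 0.0771 to 30.2 in thymus and 2.93 to 131 in spleen, and their part in the Rgs18 level was not tested. Rgs12, which also carries a GoLoco motif, averaged 97.1 ± 161 in thymus, 251 ± 40.6 in liver and 244 ± 206 in spleen, and Rgs11 averaged 238 ± 196, 128 ± 73.2 and 136 ± 148 (SD, n = 3 each).

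Among the listed Gα genes, Gnai2 and Gna13 had the highest means. Gnaq, which encodes the Gαq that Rgs2 prefers, had 0, 43 and 56 reads in thymus. Its values were 80.01, 351 and 170.3 in liver and 278.8, 306.2 and 358.7 in spleen, all above those in thymus. The log2 fold change of Gnaq was 3.46 for liver vs thymus and 4.34 for spleen vs thymus (adjusted p 0.434 and 0.317 in limma). Of 10 Gα genes tested, 7 had a positive fold change in liver vs thymus and 6 in spleen vs thymus. Gnai2, the main Gαi of lymphocytes, averaged 6547 ± 1463 in thymus, 6824 ± 390 in liver and 7037 ± 1236 in spleen (SD, n = 3 each), and Gna13 averaged 6533 ± 2763, 6786 ± 2136 and 6652 ± 2047. Arhgef1, an exchange factor with an RGS-like domain for Gα13, averaged 13722 ± 3943, 11974 ± 1184 and 12100 ± 1338. Over 7 lists, 74 of 100 listed genes were tested and none passed in limma or edgeR. These held further RGS and RGS-binding proteins, proteins with RGS-like domains, Gα, Gβ and Gγ subunits, Gs-coupled receptors, effectors and other regulators. At an unadjusted p under 0.05 limma found 13 in liver vs thymus, 13 in spleen vs thymus and 4 in liver vs spleen. The shares of all genes were 11.6%, 11.7% and 3.03%. DESeq2 called 4 of 70, 6 of 70 and 1 of 73 list genes with an adjusted p. Over all genes it called 3.96%, 4.51% and 22 of 12531.

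The chemoattractant and sphingosine 1-phosphate receptors, whose signals RGS proteins end, differed between tissues for 5 genes. Of 21 tested receptors, 4 were higher in liver than thymus and 1 was lower, 2 were higher in spleen and 1 was lower, and none passed in liver vs spleen, where edgeR and DESeq2 called none either and limma found 2 at an unadjusted p under 0.05. In liver vs thymus DESeq2 called 6 of 19 with an adjusted p (4 higher and 2 lower) and edgeR 2 (1 higher and 1 lower). In spleen vs thymus DESeq2 called 4 of 19 (2 higher and 2 lower) and edgeR 3 (2 higher and 1 lower). Of all genes, limma called 0.323% and 0.398% in these comparisons, DESeq2 3.96% and 4.51%, and edgeR 22 and 37 of 13309. In liver vs spleen, 3.03% of all genes had an unadjusted p under 0.05 in limma. The median log2 fold change of the receptors was 1.14 in liver vs thymus and 0.71 in spleen vs thymus, beside 0.29 and 0.33 over all genes tested. Ccr9 rose by 4.04 on the log2 scale in liver and 4.80 in spleen (adjusted p 0.0197 and 0.00386 in limma). Ccr2 (1.28, adjusted p 0.0267) and Cxcr6 (1.30, adjusted p 0.0197) rose in liver, and edgeR called neither of them there, nor Ccr9. Ccr8, like Rgs2, was highest in thymus replicate 2, with 2610, 10829 and 1799 in thymus and at most 55.75 elsewhere, and it passed in both comparisons (adjusted p 0.0435 and 0.0131).

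Because Rgs2 and Rgs16 are known as inducible genes, 16 immediate early genes were set beside them, of which 14 were tested. In limma and in edgeR, Nr4a3 alone passed, an orphan nuclear receptor induced through the T cell receptor, and its direction was opposite to that of the Rgs2 values: 88.59, 32.41 and 15.09 in thymus, 833.4, 913.1 and 896.8 in liver, and 6347, 1765 and 1717 in spleen (adjusted p 0.0267 and 0.00334 against thymus). DESeq2 called 4 of 13 in liver vs thymus (Jun, Nr4a1 and Nr4a3 higher, Dusp2 lower). In spleen vs thymus it called 3 of 13 (Jun, Nr4a1 and Nr4a3 higher). Over all genes, limma called 0.323% and 0.398% in these comparisons, DESeq2 3.96% and 4.51%, and edgeR 22 and 37 of 13309. Dusp2, a phosphatase of MAP kinases, had 2606, 8371 and 1289 in thymus, 826.4, 942.3 and 570.5 in liver, and 2114, 1648 and 1070 in spleen (adjusted p 0.214 for liver and 0.549 for spleen in limma). Like Rgs2, it was called lower in liver by DESeq2 and not by limma or edgeR. Its thymus libraries stood in the same order as those of Rgs2.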

How the data were processed

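RNA-seq libraries of iNKT1 cells (3 each of thymus, liver and spleen) were grouped by the tissue label. Per the submitters' processing notes, Trimmomatic 0.33, TopHat2 2.1.0, HTSeq 0.6.1, edgeR and mm10 were used. The deposited values are a signal: the authors' normalised read counts, not whole numbers. The scaling is not given in the sources used here. One thymus column, replicate 2, has an additional letter in its name. Low values lay on a ladder per library, from which reads were recovered: 92.9% of 15739 low values were within 0.1 read of a whole number (70.7% in liver replicate 3, at least 97.7% in the others). Intervals and bounds from reads cover counting error only. Symbols matched 13359 of 14004 identifiers. Lengths and positions are from GENCODE and promoters from RefSeq, both on GRCm38.

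The fit was limma-trend (limma 3.58.1, R 4.3.3) on log2(value + 1), with no block, for genes that reached 1 in 3 or more libraries. Its p-values are two-sided and were adjusted by Benjamini-Hochberg, with 0.05 as threshold. For low genes, fold changes on this scale are understated. Alternatives were the scaling, filter, pseudocount, edgeR 4.0.16 and DESeq2 1.42.0 on recovered reads, array weights, a replicate block, and leaving out libraries; the subset of libraries numbered 1 and 3 and the DESeq2 fits without a thymus replicate were chosen after seeing the data. The script was tested on simulated data. The members and lists were chosen with earlier results of these data known. Named are the 7 RGS genes, list genes past the threshold, otherwise up to 3 list genes with the highest mean, and the 3 most correlated genes per RGS gene with a mean of at least 100; Dusp2, Jun and Nr4a1 were chosen after their values were seen. Some genes that this rule names are not reported here.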

Additional observations from a re-analysis of the deposited data

How the results depend on the processing

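No call was made for an RGS gene in liver vs spleen under any alternative. None of the 24 alternatives turned the sign of Rgs2 in either thymus comparison, which its non-overlapping values largely fixed in advance. The count of RGS genes called, 0 with limma, was 2 (Rgs2 and Rgs10) with DESeq2 in liver vs thymus, in spleen vs thymus and in the test of any tissue difference. With DESeq2 and 1 thymus library left out it ran from 1 to 2 in liver vs thymus, from 0 to 3 in spleen vs thymus and from 1 to 3 in the test of any tissue difference. Without thymus replicates 1, 2 and 3 in turn, DESeq2 called 586 of 11608, 672 of 11585 and 1485 of 11739 genes in liver vs thymus. In spleen vs thymus these were 639 of 11843, 840 of 11815 and 1446 of 11975. In the test of any tissue difference they were 489 of 10680, 559 of 10185 and 1071 of 11270. With limma and 1 library left out, the count of RGS genes called ran from 0 to 1 in each thymus comparison, the 1 being Rgs2 without thymus replicate 3. DESeq2 gave no adjusted p for Rgs16. Over all genes limma called 43 and 53 in liver and spleen vs thymus, DESeq2 460 and 523, edgeR 22 and 37, and limma without thymus replicate 3 called 151 and 140. With TMM factors the median of all genes moved from 0.29 to 0.037 in liver vs thymus and from 0.33 to 0.038 in spleen vs thymus, and Rgs2 was at -3.10 and -2.72 (adjusted p 0.0627 and 0.0881). The exact p of Rgs2 was 0.0214 with equal library totals. Of 485 values of single genes, 26 had the opposite sign, none past the threshold.

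With equal library totals Rgs19 was at 0.01 in spleen vs thymus. With array weights Rgs10 was at 0.07 and Rgs16 at -0.50 in liver vs spleen. With only the libraries numbered 1 and 3, Rgs1 was at -0.02 in liver vs thymus, Rgs14 at 0.97 and 0.67 in liver and spleen vs thymus, and Rgs19 at 0.63 in spleen vs thymus. Leaving out 1 library gave, in liver vs spleen, -0.03 to 0.42 for Rgs3, -0.59 to 0.42 for Rgs10, -0.14 to 0.66 for Rgs14 and -1.25 to 3.45 for Rgs16. In liver vs thymus it gave -0.88 to 0.53 for Rgs14 and -0.04 to 0.92 for Rgs19, and in spleen vs thymus -1.08 to 0.33 for Rgs14, -0.60 to 2.63 for Rgs16 and -0.54 to 0.42 for Rgs19. DESeq2 without a thymus library gave 0.44 and 0.28 for Rgs14 in liver and spleen vs thymus, -0.20 and -0.10 for Rgs19 in liver vs thymus and 0.44 for Rgs19 in spleen vs thymus. The cause of these turns was not tested.

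The replicate numbers are shared between tissues, and same-numbered libraries deviated together only weakly (r from -0.001 to 0.089). For libraries of different tissues and different numbers, r ran from -0.087 to 0.048. The library numbered 2 in each tissue was also the one with high Xist and few Y-linked reads. This does not settle whether the numbers pair the libraries, and the fit with all libraries had no block. With a replicate block Rgs2 had an adjusted p of 0.125 and 0.188 against thymus, the block left 0 RGS genes called in every comparison, and all genes called were 42 and 55. With 3870984 reads in liver replicate 3, a gene there with 3 reads has a value of 19.2, which limits what can be said of Rgs16 and Rgs18.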
